A study of Mus musculus with 15 samples.

Results

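The genes described here encode the subunits that set 2 forms of the SWI/SNF chromatin remodelling complex apart from the others: Arid2, Pbrm1, Brd7 and Phf10 of PBAF, and Brd9, Bicra and Bicral of GBAF. Membership rests on the complex that each subunit belongs to, and the rule uses no measured value. A gene was kept where its Ensembl identifier was present in the deposited tables, and all 7 were found among 13501 genes in the OE and EV table and 13669 genes in the KD and shScr table. They had 27 of the 30220 transcripts in the transcript table. Bicral had no current symbol in the name tables. It was paired with its identifier, ENSMUSG00000036568, through the 2 genes on either side of it on chromosome 17, Rpl7l1 and Tbcc, and was listed under the older name BC032203. Of the 2 coding genes between these neighbours, it alone was present in the deposited tables.

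SWI/SNF complexes use the energy of ATP to slide or evict nucleosomes. They share a catalytic core and exist as canonical BAF, PBAF and GBAF, the last of which is also called non-canonical BAF. PBAF is built on Arid2, which takes the place that Arid1a or Arid1b has in canonical BAF, and it carries Pbrm1 and Brd7, both of which bind acetylated lysines through bromodomains, and the PHD finger protein Phf10. GBAF lacks an ARID subunit and is defined by the bromodomain protein Brd9 with either Bicra or its paralog Bicral. Smarcd1, the gene altered in these cells, encodes a subunit that all of these forms can contain.

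RNA was sequenced in 15 libraries made from the mouse mammary cancer line 6DT1, which was cultured on plastic and collected 24 h after seeding. OE cells overexpressed Smarcd1 with a C-terminal Myc tag from a pol2 promoter and were set against cells with an empty vector (EV), both under blasticidin. KD4 and KD6 cells each carried a different lentiviral hairpin against Smarcd1 and were set against cells with a scrambled hairpin (shScr), all under puromycin, and KD names both hairpin lines as a group of 6 libraries. Each line had 3 libraries, which came from separate passages seeded on successive days, and the sources used here do not say whether a line was 1 clone or a selected pool. Levels are in CPM, in which each library is scaled by its own read total, as calculated by the authors. The read depth of the libraries is unknown, so no counting error could be given, and the SD over libraries is the error throughout. Log2 changes are on the log2(CPM + 1) scale, which understates the change of weakly expressed genes, and come from limma fits of the whole table. A gene was called at an adjusted p under 0.05 over all genes tested.

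Smarcd1 was at 65.7 ± 4.40 CPM in OE cells, against 29.6 ± 2.37 CPM in EV cells (SD, n = 3 each), and was the single gene of the table that passed in that comparison (limma, adjusted p = 0.0035). When transcripts were summed per gene it was at 37.3 ± 0.962 CPM in OE cells and 29.4 ± 2.74 CPM in EV cells, and 0 genes passed. These sums of Smarcd1 were 54.4% to 58.9% of the per-gene values in OE libraries and 79.7% to 103% in the other libraries. In KD4 cells Smarcd1 was at 9.13 ± 0.121 CPM per gene, and in shScr cells at 15.3 ± 1.01 CPM (adjusted p = 8.7e-04). The libraries labelled KD6 held 14.4 ± 1.03 CPM, a log2 difference from shScr cells of -0.09 with an adjusted p of 0.70. On the summed transcripts they were at 13.2 ± 1.05 CPM, a lower mean than in shScr cells (15.3 ± 1.55 CPM) with overlapping ranges. The label of these libraries was therefore not borne out by a called change of the targeted RNA, and the word KD6 below refers to the label. The control lines also differed, at 29.4 ± 2.74 CPM in EV cells and 15.3 ± 1.55 CPM in shScr cells when transcripts were summed per gene (adjusted p = 7.5e-05). Of the mammary epithelial markers, 3 of 9 were listed, Krt8, Krt18 and Krt19, with a summed level of 655 to 958 CPM over all libraries, while Epcam and Cdh1 were not listed. Markers of fibroblasts were represented by Pdgfra alone, at 1.55 to 7.59 CPM, those of endothelial cells by Kdr alone, at 0.536 to 1.81 CPM, and those of immune cells by Cd68 alone, at 26.7 to 68.1 CPM. Pdgfra, the 1 listed of 7 fibroblast markers, was at 7.51 ± 0.345 CPM in KD4 cells and 4.75 ± 0.349 CPM in the libraries labelled KD6, against 3.14 ± 0.535 CPM in shScr cells. It passed in KD4 (limma adjusted p = 4.6e-04), for both hairpins as 1 group (0.042) and between the hairpins (0.017), with all 6 hairpin libraries above shScr, and in KD6 its adjusted p was 0.051. Krt19 was at 12.9 ± 0.871 CPM in KD4 cells and 18.8 ± 2.32 CPM in KD6, against 22.5 ± 0.875 CPM in shScr cells, and passed as lower in KD4 (adjusted p = 0.0011) and as higher in KD6 than in KD4 (0.014), while Krt8 and Krt18 passed in neither. Krt8 and Krt18 both had a positive log2 change in KD4 against shScr cells, the opposite direction from Krt19. Of them 1 was higher there at an unadjusted limma p under 0.05. EV replicate 1 stood apart on the first principal component of its table (23.7, against -11.3 to -1.07 for the other libraries). Bulk RNA cannot separate fewer expressing cells from less RNA per cell.

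Among the genes of both complexes, Brd9 and Brd7 encode related bromodomain proteins of GBAF and PBAF, and Brd9 was the one that passed in a hairpin line. The 250 bases before a RefSeq start site of each are shown to give the sequence context of this pair (GRCm38.p6; Brd9 at chr13:73937561-73937810, plus strand, and Brd7 at chr8:88362173-88362422, minus strand). Capitals mark GC boxes (GGGCGG or its reverse complement CCGCCC) and ETS cores (CCGGAA or TTCCGG).
Brd9: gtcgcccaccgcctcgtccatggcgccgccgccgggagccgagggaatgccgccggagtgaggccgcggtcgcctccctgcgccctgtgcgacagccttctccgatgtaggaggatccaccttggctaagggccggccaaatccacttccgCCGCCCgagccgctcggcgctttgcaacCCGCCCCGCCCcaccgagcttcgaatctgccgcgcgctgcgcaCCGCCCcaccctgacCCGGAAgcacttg
Brd7: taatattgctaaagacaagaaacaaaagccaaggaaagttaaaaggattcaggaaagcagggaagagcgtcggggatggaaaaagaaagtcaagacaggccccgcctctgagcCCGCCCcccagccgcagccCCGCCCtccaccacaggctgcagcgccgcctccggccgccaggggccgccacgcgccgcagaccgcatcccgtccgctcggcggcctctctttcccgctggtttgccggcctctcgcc

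The Brd9 window held 4 GC boxes, 2 of which overlap by 1 base, and 1 ETS core, while the Brd7 window held 2 GC boxes and no ETS core. A GC box was present in 32.7% and an ETS core in 12.03% of 32851 mouse windows of the same length. The Brd9 window had 72.4% G or C and 33 CG dinucleotides, the Brd7 window 64.0% and 22, and the median window 52.4% and 6. A second RefSeq start of Brd9 lay 17 bases downstream, with a window of the same composition. The Pbrm1 window held 1 ETS core and 1 E-box (CACGTG), a motif found in 6.02% of windows, and the Phf10 window held 5 GC boxes in 88.4% G or C. The table of start sites used here had entries for these 4 genes among the 7. None of the 5 windows held CCAAT or its reverse complement ATTGG, which were present in 33.8% of all windows. These are matches of letters in a window and not measured binding sites.

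Per length, 1 transcript per gene was compared, the most abundant one with a length in the NCBIM37 annotation, and those of the PBAF genes lay above those of the GBAF genes in every library. Phf10 (ENSMUST00000024657, 1622 bases) had a median of 26.4 CPM per kilobase over the 15 libraries, Brd7 (ENSMUST00000034085, 3625 bases) 16.8, Pbrm1 (ENSMUST00000112095, 7907 bases) 15.004 and Arid2 (ENSMUST00000096250, 8505 bases) 11.7 CPM per kilobase. In GBAF, Brd9 (ENSMUST00000099384, 2406 bases) had 4.95, Bicral (ENSMUST00000040624, 6579 bases) 4.61 and Bicra (ENSMUST00000094821, 5360 bases) 0.818 CPM per kilobase. The lowest single value of a PBAF transcript was 9.59 CPM per kilobase, for Arid2, and the highest of a GBAF transcript was 6.71, for Brd9. Neighbours in this order were not all separated: Brd7 (15.4 to 18.1) overlapped Pbrm1 (13.3 to 16.5), Pbrm1 overlapped Arid2 (9.59 to 14.5) and Brd9 (4.19 to 6.71) overlapped Bicral (3.70 to 6.17). These transcripts carried unequal parts of their genes, with a median share of the summed transcripts of 97.0% for Arid2, 88.3% for Brd7, 77.4% for Phf10 and 65.4% for Pbrm1, against 75.9% for Bicral, 44.8% for Brd9 and 19.9% for Bicra. With all transcripts of a gene summed over the same length, the complexes were no longer apart: Brd9 (9.42 to 13.4 CPM per kilobase) overlapped Arid2 (9.83 to 14.998), while Bicral (5.11 to 8.13) and Bicra (2.67 to 5.996) stayed below every PBAF gene. Neither order measures the amount of either complex.

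**Figure D1:**
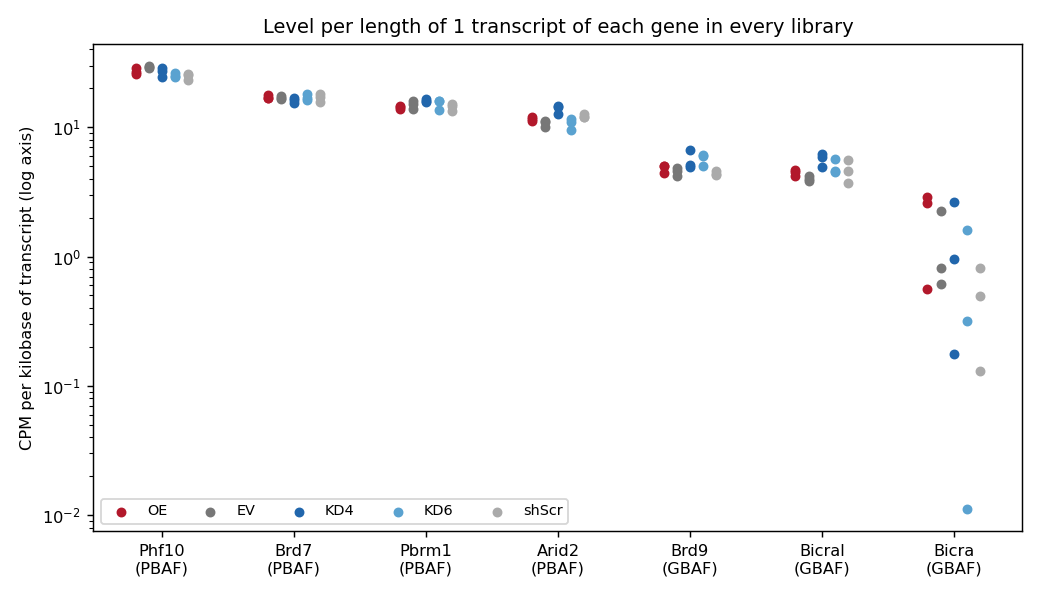
CPM per kilobase (log axis) of the most abundant transcript with a known length of each gene, in 15 libraries coloured by line. The transcripts of the 4 PBAF genes lie between 9.59 and 29.7 CPM per kilobase, above those of the 3 GBAF genes, of which the Brd9 and Bicra transcripts carry a median of 44.8% and 19.9% of their gene, and Bicra spreads widest, from 0.0111 to 2.87 CPM per kilobase.

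OE cells, with more Smarcd1, were set against EV cells. Each label stands for a single line, so line and Smarcd1 level cannot be told apart in this comparison or in those of the hairpins. The limma p-values rest on the spread between libraries of the same line. No PBAF or GBAF gene passed, but Bicra, Bicral and Arid2 each had all 3 OE libraries above all 3 EV libraries, by 1.09-fold to 1.31-fold. Bicra, a scaffold of GBAF, was at 21.2, 21.7 and 25.6 CPM in OE cells, against 18.2, 16.5 and 17.8 CPM in EV cells. Its OE libraries all lay higher, with 22.9 ± 2.40 CPM against 17.5 ± 0.869 CPM (log2 change 0.36, SE 0.08, limma adjusted p = 0.21). Its paralog Bicral was at 40.0, 43.6 and 42.6 CPM in OE cells, against 38.7, 36.2 and 37.2 CPM in EV cells. The gap between its closest libraries was narrow, and the log2 change was 0.17 (SE 0.06, adjusted p = 0.30). Arid2, the DNA-binding subunit on which PBAF is assembled, was at 108, 99.9 and 104 CPM in OE cells, against 98.9, 89.3 and 96.5 CPM in EV cells. The groups were likewise apart by little, with a log2 change of 0.13 (SE 0.05, adjusted p = 0.37). Without EV replicate 1 these 3 log2 changes were 0.39, 0.19 and 0.16, with adjusted p of 0.29, 0.38 and 0.42.

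The other subunits overlapped between OE and EV cells. Pbrm1, the multi-bromodomain subunit of PBAF, ranged over 175.6 to 190.5 CPM in OE cells and 168.8 to 179.2 CPM in EV cells. Brd7 ranged over 68.3 to 71.5 CPM in OE cells and 67.7 to 72.3 CPM in EV cells, and Phf10 over 55.7 to 60.4 CPM in OE cells and 58.6 to 61.4 CPM in EV cells. Brd9 ranged over 28.0 to 31.7 CPM in OE cells and 29.4 to 32.7 CPM in EV cells. The 95% intervals of the log2 change were -0.07 to 0.16 for Pbrm1, -0.10 to 0.12 for Brd7, -0.17 to 0.06 for Phf10 and -0.21 to 0.11 for Brd9.

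These counts were read against the whole table. In the OE and EV comparison 0.00741% of genes passed, so 0 of 7 was also the background. At an unadjusted p under 0.05 3 of 7 were higher and none lower, where 7.68% of all genes were higher and 5.27% lower. OE libraries all above EV libraries were found for 3 of 7 members and 11.3% of all genes, and OE libraries all below for none of the 7 and 8.71% of all genes. The median log2 change was 0.05 over the members and 0.01 over all genes.

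**Figure D2:**
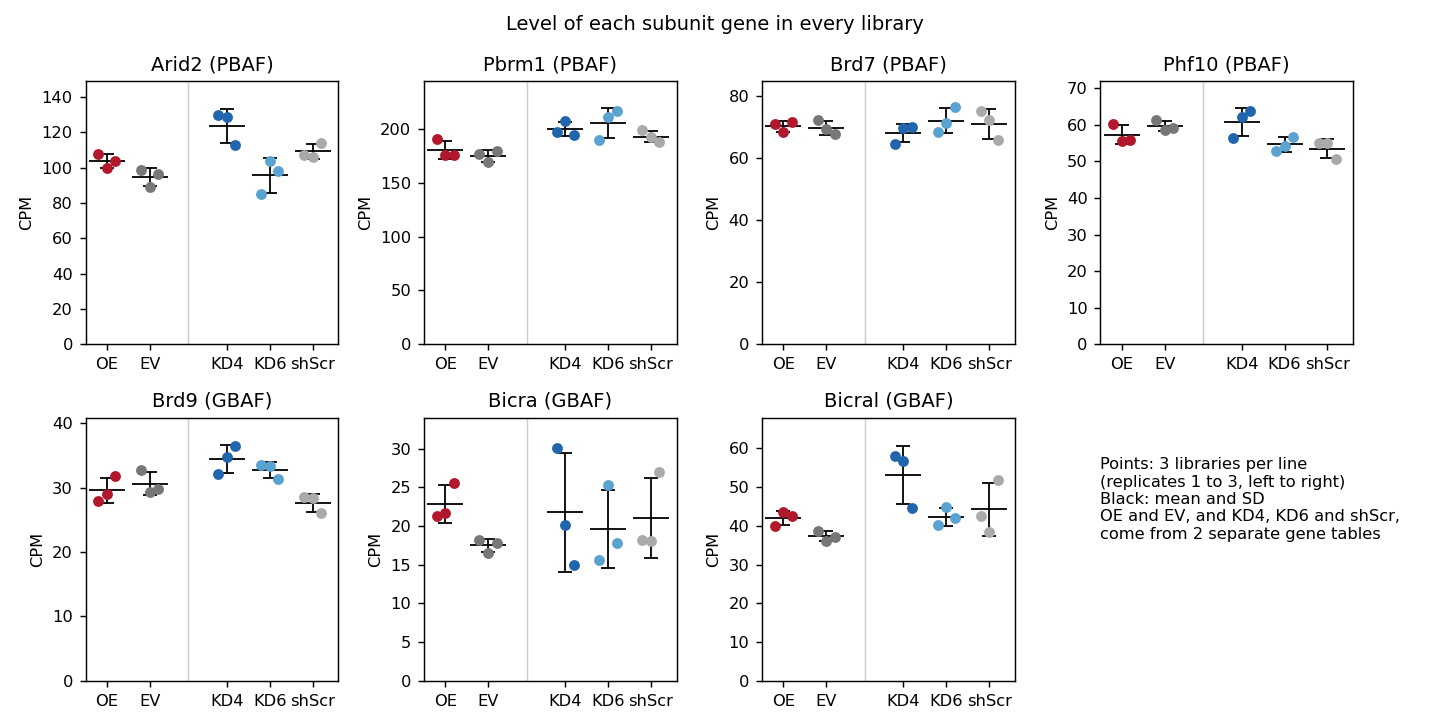
CPM of each gene in every library (points, 3 per line) with the mean and SD (black), from the OE and EV table on the left of each panel and the KD and shScr table on the right. Brd9 lies at 31.4 to 36.4 CPM in the 6 hairpin libraries and at 26.0 to 28.5 CPM in shScr cells, Arid2 is split between KD4 and KD6, and Bicra spreads most within lines.

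The hairpin lines were set against shScr cells, and of them KD4 alone passed for less Smarcd1 RNA. Brd9, the defining bromodomain subunit of GBAF, was higher in both, and it was the 1 gene of the 7 to pass in KD4 cells. It was at 32.1, 34.8 and 36.4 CPM in KD4 cells and 33.5, 33.3 and 31.4 CPM in the libraries labelled KD6, against 28.5, 28.4 and 26.0 CPM in shScr cells. All 6 hairpin libraries lay above all 3 shScr libraries. Brd9 rose 1.25-fold in KD4 cells (34.4 ± 2.18 CPM against 27.6 ± 1.44 CPM, log2 change 0.31, SE 0.07, limma adjusted p = 0.029). For KD6 the change was 1.18-fold (32.7 ± 1.18 CPM, log2 change 0.24, SE 0.07) with an adjusted p of 0.14. Both comparisons share the shScr libraries, and their Smarcd1 levels differed as given above. Pdgfra was likewise above shScr in all 6 hairpin libraries, and its part in the level of Brd9 was not tested. With the hairpins as 1 group of 6 the log2 change was 0.27 (SE 0.07) and the adjusted p 0.062, and with the mean of both hairpins in a fit of 3 groups the adjusted p was 0.034.

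The call of Brd9 in KD4 cells was a close one, and it was lost with a block for replicate number (adjusted p = 0.099). Its adjusted p rose to between 0.050 and 0.098 when KD4 replicate 2 (0.090) or 3 (0.090), KD6 replicate 2 (0.050) or any shScr library (0.061, 0.073 and 0.098 for replicates 1, 2 and 3) was left out, while the log2 change stayed between 0.26 and 0.33 in those fits. In a fit of KD4 and shScr alone, chosen after seeing the data to leave out the libraries labelled KD6, the log2 change was 0.31 with an adjusted p of 0.057, and no member was called. From the transcript table, with values summed per gene, the log2 change in KD4 cells was 0.34 with an adjusted p of 0.031. The transcript table holds all lines on 1 scale. There Brd9 was at 30.6 ± 1.64 CPM in KD4 cells, 28.2 ± 1.15 CPM in the libraries labelled KD6, 25.4 ± 1.43 CPM in OE cells, 25.7 ± 0.555 CPM in EV cells and 24.0 ± 1.59 CPM in shScr cells. All 6 hairpin libraries lay above the other 9, by a small margin (lowest 26.9 CPM, against a highest of 26.8 CPM in the others), which was so for 0.776% of all genes and for 2 of the 7 members, Brd9 and Pbrm1, a comparison chosen after their values were seen. On this scale OE and EV libraries overlapped, as did OE and shScr libraries.

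Arid2 differed between the hairpin lines. It was at 129.8, 128 and 113 CPM in KD4 cells and 84.9, 104 and 98.2 CPM in the libraries labelled KD6, with 107, 106 and 114 CPM in shScr cells. KD6 libraries were all below both other lines, and 2 KD4 libraries were above shScr while the third fell within its range. KD6 fell to 95.7 ± 9.72 CPM, against 123.7 ± 9.48 CPM in KD4 cells (log2 change -0.37, SE 0.09, limma adjusted p = 0.035). Against shScr cells (109 ± 4.21 CPM) neither line passed: the log2 change was 0.18 in KD4 (SE 0.09, adjusted p = 0.24) and -0.19 in KD6 (SE 0.09, adjusted p = 0.32). As 1 group of 6 the hairpin libraries were at 109.7 ± 17.6 CPM. The call between hairpins was lost without KD4 replicate 1 (adjusted p = 0.096) or 2 (0.13), KD6 replicate 1 (0.094) or 3 (0.075), or shScr replicate 1 (0.052) or 2 (0.058), without an intensity trend (0.057), and with a block for replicate number (0.10). Krt19 and Pdgfra also differed between the hairpins, and their part in the level of Arid2 was not tested.

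Phf10 and Bicral were higher in KD4 cells without passing. Phf10 was at 56.3, 62.3 and 63.8 CPM in KD4 cells and 52.8, 54.3 and 56.7 CPM in the libraries labelled KD6, against 55.0, 55.0 and 50.6 CPM in shScr cells. The KD4 libraries lay above shScr without overlap (log2 change 0.18, SE 0.07, adjusted p = 0.15), and the KD6 libraries did not. Bicral was at 58.1, 56.7 and 44.5 CPM in KD4 cells and 40.1, 44.8 and 42.0 CPM in the libraries labelled KD6, against 42.6, 38.3 and 51.8 CPM in shScr cells. Each hairpin line overlapped shScr, where replicate 3 stood above the other two (log2 change 0.26 in KD4, SE 0.12, adjusted p = 0.22). Between hairpins Bicral differed by a log2 change of -0.31 for KD6 against KD4 (SE 0.12, adjusted p = 0.21).

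Bicra varied more between libraries of 1 line than between lines. It was at 30.1, 20.2 and 15.001 CPM in KD4 cells and 15.6, 25.3 and 17.9 CPM in the libraries labelled KD6, against 18.1, 18.0 and 27.0 CPM in shScr cells. The highest library was replicate 1 in KD4, replicate 2 in KD6 and replicate 3 in shScr. The 95% interval of the log2 change was -0.53 to 0.56 in KD4 and -0.64 to 0.44 in KD6, so changes of the size seen in OE cells lie within both. Pbrm1 and Brd7 overlapped in every hairpin comparison. Pbrm1 ranged over 194.7 to 207.7 CPM in KD4, 189.4 to 216.3 CPM in KD6 and 187.8 to 198.6 CPM in shScr, and Brd7 over 64.6 to 69.9 CPM in KD4, 68.4 to 76.5 CPM in KD6 and 65.7 to 75.2 CPM in shScr. On the summed transcripts Pbrm1 was at 186.5 to 199.3 CPM in the 6 hairpin libraries and at 183.7 CPM or less in the other 9. Such a separation was found for 0.776% of all genes, as given above. The log2 change of Pbrm1 on that scale was 0.09 for both hairpins against shScr, with a limma adjusted p of 0.43.

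**Figure D3:**
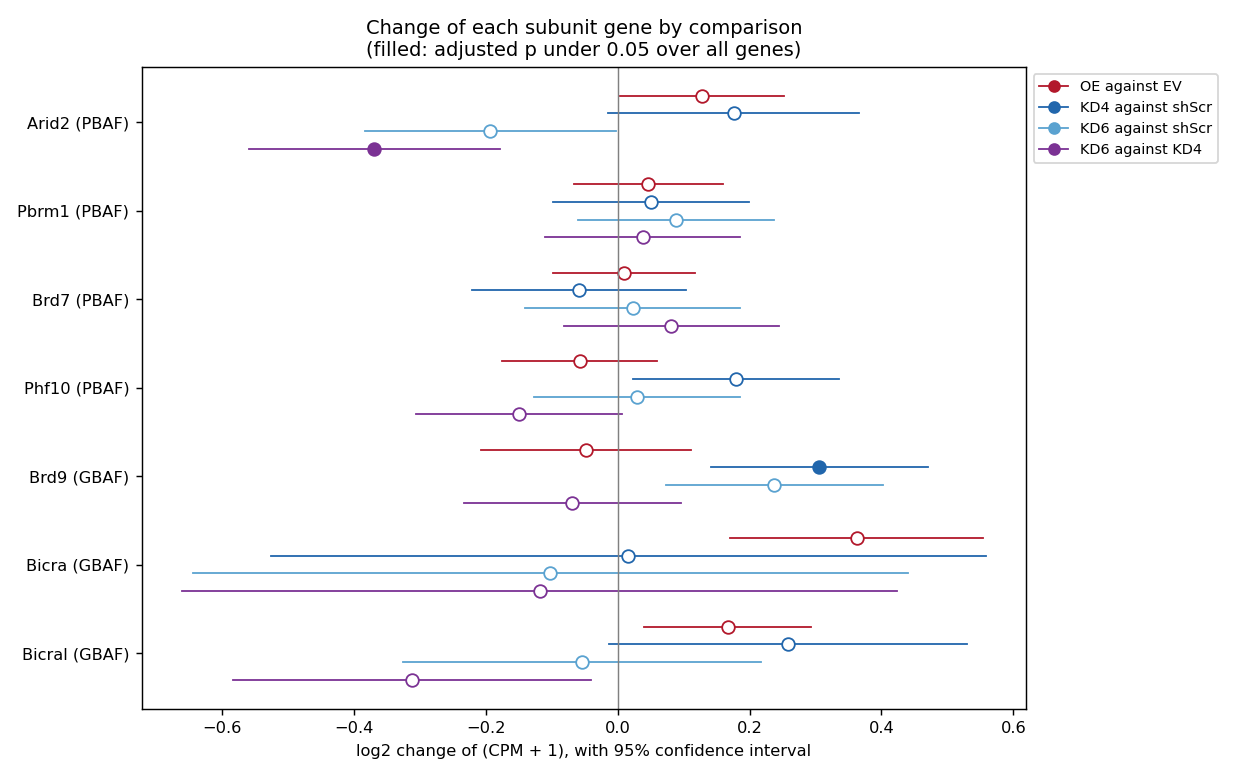
Log2 change of each gene with its 95% confidence interval in 4 comparisons, filled where the adjusted p over all genes was under 0.05. Filled points are Brd9 in KD4 against shScr (0.31) and Arid2 in KD6 against KD4 (-0.37), and the hairpin intervals of Bicra are the widest.

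In KD4 cells 5.71% of all genes were called higher and 3.87% lower, and 1 of 7 members was called higher and none lower. Of all genes 15.9% had KD4 libraries above shScr without overlap, as had 2 of the 7, and the median log2 change was 0.18 over the members and 0.00 over all genes. In KD6 2.04% were called higher and 0.871% lower, with 0 of 7 members, and at an unadjusted p under 0.05 1 member was higher and 1 lower (8.65% and 6.61% of all genes). Libraries without overlap were found higher in 12% and lower in 10.2% of all genes, and in 1 member each way (Brd9 and Arid2). For both hairpins as 1 group 1.95% of genes were called higher and 0.710% lower, with 0 of 7 members, and at an unadjusted p under 0.05 Brd9 alone was higher and none lower (9.86% and 7.43% of all genes). Brd9 was also the 1 member whose 6 hairpin libraries all lay above shScr, as did 6.16% of all genes. Between the hairpins 2.52% of genes were higher in KD6 and 2.39% lower, with Arid2 as the 1 member called and the 1 member whose KD6 libraries all lay below KD4, as did 10.8% of all genes. These shares of members rest on 1 or 2 genes.

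The difference of OE from EV cells (OE effect) and that of the hairpins from shScr cells (KD effect) were compared in a single fit of all lines on the summed transcripts. On this scale Smarcd1 in OE cells stood less far above EV cells, as given above. None of the 7 passed, where 0.776% of 13142 genes were higher and 1.13% lower, and at an unadjusted p under 0.05 none was higher and 1 lower (8.79% and 9.94% of all genes). The smallest p was that of Brd9, with a log2 value of -0.30 for the OE effect minus the KD effect (SE 0.09, limma adjusted p = 0.11). For Bicra it was 0.31, with a 95% interval of -0.43 to 1.06.

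The 2 control lines are separate lines that differ in vector, selection drug and, as given above, Smarcd1 level. Cd68, the 1 listed immune marker, was also called higher in EV cells (60.5 to 62.8 CPM) than in shScr cells (32.3 to 38.8 CPM), with a log2 change of 0.81. These differences cannot be told apart in this design, and their part in the levels below was not tested. None of the 7 passed in EV against shScr cells, where 9.40% of genes were higher and 6.41% lower, and at an unadjusted p under 0.05 1 was higher and 1 lower (18.6% and 14.6% of all genes). Arid2 was at 97.6, 87.8 and 95.4 CPM in EV cells, against 106, 104 and 112 CPM in shScr cells, without overlap (log2 change -0.20, SE 0.08, limma adjusted p = 0.094). After quantile normalization it passed (log2 change -0.25, adjusted p = 0.036). Phf10 was at 59.6, 56.6 and 57.6 CPM in EV cells, against 53.5, 53.8 and 48.9 CPM in shScr cells, also without overlap (log2 change 0.15, SE 0.06, adjusted p = 0.11). Of all genes 21.1% lay without overlap higher in EV cells and 17.8% lower, beside 1 of 7 each way. For comparison, the log2 change against shScr on the gene tables was 0.18 in KD4 and -0.19 in KD6 for Arid2, and 0.18 in KD4 and 0.03 in KD6 for Phf10.

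The transcript table gave no called transcript among the 27. No transcript passed of 30220 in OE against EV cells, where 6.08% were higher and 3.57% lower at an unadjusted p under 0.05, as were 2 of the 27 and none. For the hairpins as 1 group 0.235% were called higher and 0.0596% lower, for KD4 0.642% and 0.493%, and for KD6 0.0993% and 0.0430%. At an unadjusted p under 0.05, 4 of the 27 were higher and none lower for the hairpins as 1 group (6.05% and 5.97% of all transcripts), 2 higher and 1 lower in KD4 (7.53% and 7.32%) and 3 higher and none lower in KD6 (5.10% and 5.07%). Brd9 was listed with 5 transcripts. The most abundant, ENSMUST00000099384, has 16 exons and a coding length of 1794 bases in NCBIM37, and took 40.1% to 50.4% of the summed transcripts of Brd9. It was at 11.9, 12.3 and 16.1 CPM in KD4 cells and 14.6, 14.4 and 12.05 CPM in the libraries labelled KD6, against 10.5, 11.1 and 10.3 CPM in shScr cells. Hairpin and shScr libraries did not overlap (log2 change 0.32, SE 0.11, limma adjusted p = 0.31), which was so for 3.50% of all transcripts in that direction. ENSMUST00000222399 of Brd9 averaged 32.6 ± 4.35% of the sum in EV cells and 20.5 ± 3.87% in shScr cells, the widest difference between lines within this gene.

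Phf10 was carried by a short and a long transcript. The short one, ENSMUST00000024657, took 73.5% to 81.8% of the sum, and the long one, ENSMUST00000168938 (3860 bases), 16.2% to 24.2%. In NCBIM37 the short one has a coding length of 1494 bases. The long one is typed there as nonsense-mediated decay, with a coding length of 567 bases. The long transcript was at 12.7, 14.7 and 13.9 CPM in KD4 cells, against 10.5, 11.5 and 10.4 CPM in shScr cells. The lines did not overlap, which was so for 10.2% of all transcripts in that direction (log2 change 0.32, SE 0.10, limma adjusted p = 0.17), and in KD6 it was at 11.4, 11.8 and 11.1 CPM. Its mean share was 23.3 ± 0.875% in KD4 cells, 21.5 ± 1.26% in KD6 and 20.7 ± 0.973% in shScr cells, and 18.5 ± 1.50% in OE cells and 16.9 ± 0.603% in EV cells.

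Pbrm1, with 8 listed transcripts, was led by ENSMUST00000112095 (31 exons, coding length 4905 bases), at 54.8% to 70.8% of the sum. No transcript of Pbrm1 passed, and 2 minor ones had an unadjusted p under 0.05 with both hairpins as 1 group. ENSMUST00000090214 averaged 4.93 ± 1.64 CPM in KD cells (n = 6) and 2.41 ± 0.641 CPM in shScr cells (n = 3), with a log2 change of 0.76 (limma adjusted p = 0.31), and ENSMUST00000112098 averaged 1.81 ± 0.596 CPM in KD cells and 0.839 ± 0.112 CPM in shScr cells, with a log2 change of 0.58 (limma adjusted p = 0.27). For both, KD4 replicate 1 (1.96 and 0.805 CPM) fell within the shScr range (1.895 to 3.13 and 0.772 to 0.969 CPM). ENSMUST00000022474 was at 9.45 ± 0.258 CPM in KD4 cells and 12.5 ± 2.16 CPM in shScr cells, without overlap (log2 change -0.36, limma adjusted p = 0.29), which was so for 11% of all transcripts in that direction, and at 14.2 ± 1.86 CPM in KD6. Brd7 was led by ENSMUST00000034085, at 86.8% to 90.1%. Its minor transcript ENSMUST00000139675 is typed as a retained intron in NCBIM37. It was at 2.60 ± 0.161 CPM in OE cells and 1.49 ± 0.430 CPM in EV cells, without overlap (log2 change 0.54, SE 0.16, limma adjusted p = 0.46), as were 10.8% of all transcripts in that direction. Arid2 was nearly a single transcript, ENSMUST00000096250, at 96.3% to 97.6%, and Bicral had ENSMUST00000040624 at 71.9% to 82.8%.

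Bicra was the member whose transcripts were least stable. ENSMUST00000094821 was at 2.99, 15.4 and 13.9985 CPM in OE cells, 3.30, 4.39 and 12.1 CPM in EV cells, 5.17, 0.940 and 14.2 CPM in KD4 cells, 1.70, 8.63 and 0.0595 CPM in the libraries labelled KD6 and 4.39, 0.698 and 2.67 CPM in shScr cells. Libraries of 1 line were far apart in every line, and the share of this transcript ran between 0.391% and 60.8% of the sum. The summed transcripts of Bicra were 82.5% to 156% of the value in the gene tables, with the highest ratio in KD4 replicate 3 (23.4 CPM summed and 15.001 CPM in the gene table). For Brd9 the ratio was 80.3% to 90.3%, for Arid2 97.8% to 98.8% and for Brd7 97.9% to 99.3%. The higher level of Bicra in OE cells was therefore read from both tables: summed transcripts gave 19.7, 29.0 and 32.1 CPM in OE cells, against 16.6, 16.5 and 24.5 CPM in EV cells, which overlapped (log2 change 0.46, limma adjusted p = 0.43).

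**Figure D4:**
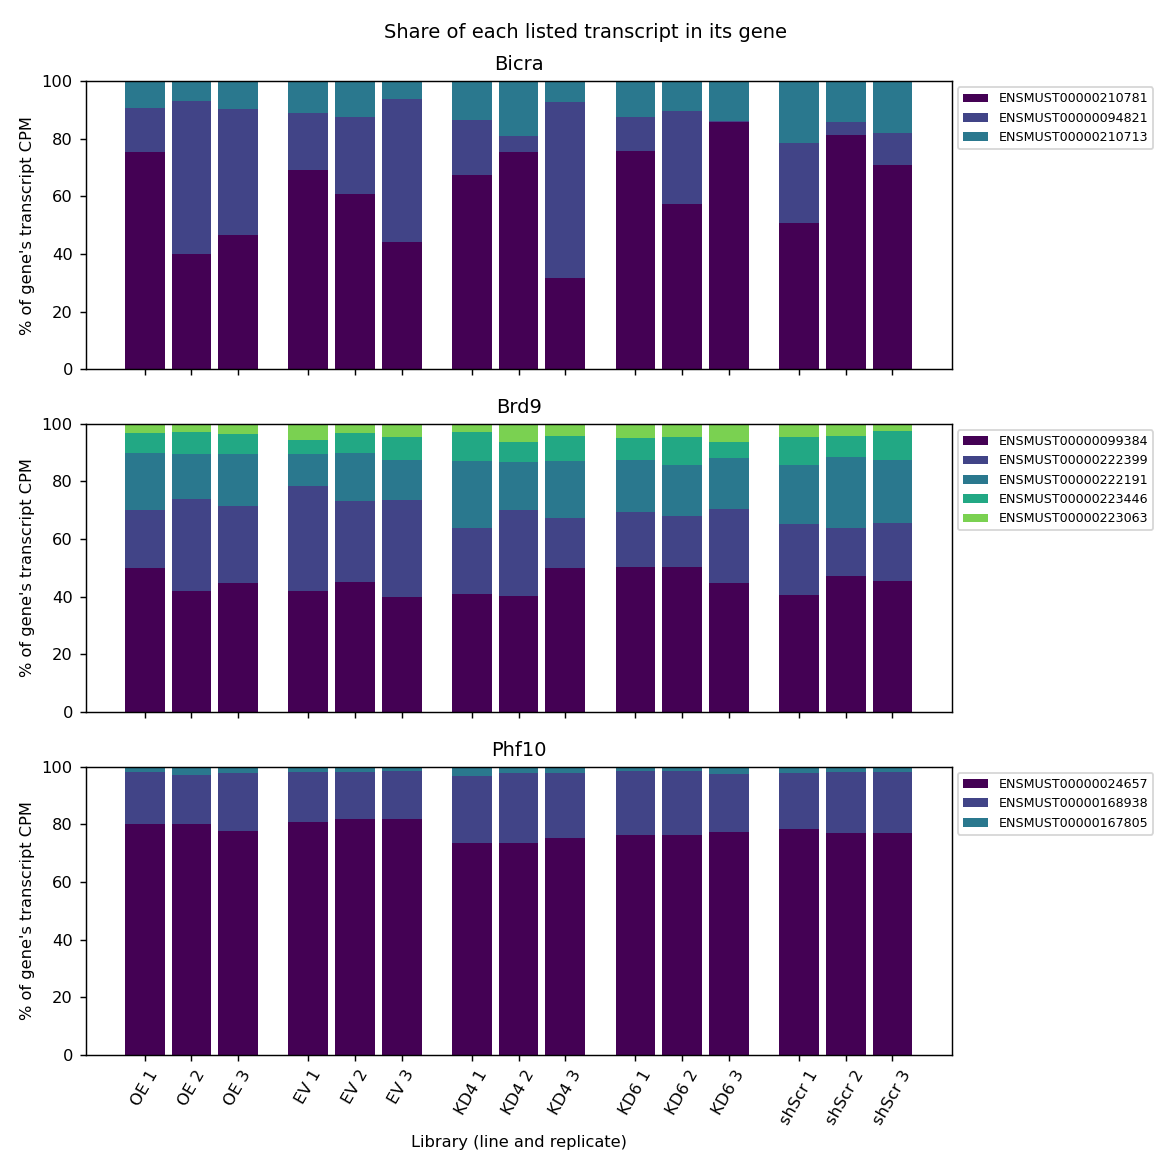
Share (%) of each listed transcript in the summed CPM of Bicra, Brd9 and Phf10 for the 15 libraries. ENSMUST00000094821 of Bicra runs between 0.391% and 60.8%, while the leading transcripts of Brd9 (40.1% to 50.4%) and Phf10 (73.5% to 81.8%) keep a narrower range.

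A shift in the balance of transcripts was tested for 7077 genes with at least 2 of them. In OE against EV cells 1.37% passed, and none of the 7 members did; Brd7 had the smallest value (limma diffSplice with Simes' method, adjusted p = 0.096) and was the 1 member under 0.05 before adjustment, as were 16.7% of all genes. In KD against shScr cells 1.29% passed and again none of the 7, with Pbrm1 smallest (adjusted p = 0.51) and no member under 0.05 before adjustment, as were 13% of all genes.

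Ratios within a library described the balance of paired subunits. Brd9 to Brd7 was 0.506 ± 0.0134 in KD4 cells, 0.456 ± 0.0410 in the libraries labelled KD6 and 0.390 ± 0.00895 in shScr cells, and no hairpin library (0.410 to 0.521) reached down to the highest shScr library (0.396). In OE cells it was 0.421 ± 0.0245, against 0.439 ± 0.0145 in EV cells. The KD4 libraries (0.497 to 0.521) lay above every OE library (0.395 to 0.444), EV library (0.424 to 0.452) and shScr library. KD6 replicates 1 (0.490) and 2 (0.467) did so too. KD6 replicate 3 (0.410) lay within the OE range and below the EV libraries, so the libraries labelled KD6 were apart from shScr alone. Arid2 to Pbrm1 was 0.619 ± 0.0398 in KD4, 0.465 ± 0.0243 in KD6 and 0.567 ± 0.0353 in shScr cells. The 3 GBAF genes together made up 18.7 ± 1.31% of the summed CPM of all 7 in OE cells, 17.6 ± 0.287% in EV cells, 19.4 ± 1.66% in KD4, 18.1 ± 1.07% in KD6 and 17.9 ± 1.88% in shScr cells, so this share differed by little beside its spread. CPM is not corrected for length, so these ratios compare libraries and not the amounts of 2 genes.

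Across the 15 libraries the members did not move as a block. With summed transcripts on the log2 scale, the closest pair was Arid2 and Bicral (Pearson r = 0.77, Spearman rho = 0.71), which kept r = 0.65 after each line's mean was subtracted. Brd7 and Phf10 had r = 0.18 across libraries and r = 0.81 within lines, and Bicra and Bicral, which can replace each other in GBAF, had r = 0.36 and 0.54. Brd9 had r = 0.58 with Pbrm1 across libraries and r = -0.02 within lines. These values describe 15 points that share lines and the CPM total.

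For each member the most similar profiles among 9777 genes with a symbol and a mean of at least 5 CPM were taken from the same values. Arid2 was nearest to Klf3, a zinc finger transcription factor (r = 0.95), and Pcgf5, a Polycomb group RING finger protein (r = 0.94). Pbrm1 was nearest to Brwd3, a bromodomain and WD repeat protein (r = 0.92), and Acadsb, an acyl-CoA dehydrogenase (r = 0.92). Brd7 lay with Ccdc18 (r = 0.89) and the mitochondrial chaperone Hspa9 (r = 0.89), and Phf10 with the NEDD8-activating enzyme subunit Nae1 (r = 0.91) and the metalloreductase Steap2 (r = 0.90). Brd9 lay with Rcn1, a calcium-binding protein of the endoplasmic reticulum (r = 0.94), and the secreted protein Olfml3 (r = 0.92). Bicra had the least similar neighbours, Zmiz2 (r = 0.84) and Midn (r = 0.83), and Bicral lay with the collagen gene Col5a1 (r = 0.92) and Hspa2 (r = 0.91). Each is one of the highest of 9777 correlations over the same 15 libraries.

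Other subunits and bromodomain genes were counted beside the members, in lists chosen with earlier results of these data known. Of 16 shared and core subunits 15 were listed, of 5 specific to canonical BAF 4, and of 32 other bromodomain genes 30. In OE cells none of these passed. Among the bromodomain genes 10 of 30 were higher at an unadjusted p under 0.05 and none lower, where 7.68% of all genes were higher and 5.27% lower. A positive log2 change was found for 26 of 30 and for 53.8% of all genes. The smallest p was that of the acetyltransferase gene Ep300 (207 ± 7.72 CPM in OE cells and 165 ± 5.83 CPM in EV cells, limma adjusted p = 0.16). Arid1a, the alternative to Arid2 in canonical BAF, was at 187 ± 7.67 CPM in OE cells and 148 ± 6.59 CPM in EV cells (limma adjusted p = 0.16).

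In KD4 cells 1 of 15 core subunits rose, Bcl7c (25.2 ± 1.40 CPM, against 20.1 ± 1.09 CPM in shScr cells, limma adjusted p = 0.034), and none fell. Of all genes 5.71% were called higher and 3.87% lower in that comparison. Of the bromodomain genes Sp140, an immune-cell chromatin reader (9.77 ± 0.851 CPM in KD4 cells and 4.48 ± 0.297 CPM in shScr cells, adjusted p = 0.0030), and Trim24 (50.7 ± 4.01 CPM and 41.2 ± 1.98 CPM, adjusted p = 0.034) rose, while the acetyltransferase gene Kat2b fell to 37.9 ± 3.36 CPM in KD4 cells, against 60.9 ± 1.18 CPM in shScr cells (adjusted p = 7.9e-04). In KD6 none of the 3 lists held a called gene. Of these lists Trim24 alone rose with both hairpins as 1 group (50.5 ± 2.77 CPM, adjusted p = 0.041), as did 1.95% of all genes. Between the hairpins Kat2b was higher in KD6 (69.2 ± 5.45 CPM, adjusted p = 4.1e-04) and Sp140 (4.20 ± 1.25 CPM, adjusted p = 0.0027) and Brd1 (86.2 ± 3.41 CPM in KD6 and 105.6 ± 3.65 CPM in KD4 cells, adjusted p = 0.021) were lower. There 2.52% of all genes were called higher and 2.39% lower. The genes specific to canonical BAF held no call in any OE or hairpin comparison, though at an unadjusted p under 0.05 Arid1a and Arid1b were higher in OE cells and Dpf1 was lower in KD4, KD6 and both together.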

How the data were processed

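The deposited values were CPM that the authors calculated per gene (2 tables) and per transcript (1 table). STAR 2.7.8a and build mm39 stand in the submitters' processing notes and Tophat and mm9 in the study's methods, so the build is unsettled and no coordinate was read from these tables. Sums per library were 854736 to 923092 CPM, no whole-read steps were found, and depth is unknown. Another 15 columns matched no sample label and were not used. Symbols matched 87.3% to 88.1% of identifiers. Files with the authors' own comparisons were not used.

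Values were tested as log2(CPM + 1) with limma 3.58.1 (intensity trend, R 4.3.3), with Benjamini-Hochberg adjustment over all rows of each table. OE was compared with EV, and KD4 and KD6, together and apart, with shScr. The test was checked on simulated data with 200 changed genes: in OE against EV, 74.0% of 1.5-fold and 93.0% of 2-fold changes were recovered, and in KD4 against shScr 60.0% and 96.0%. Pseudocount, trend, scaling, filters, left-out libraries and a replicate block were varied. The members and lists were chosen with earlier results of these data known. All members are named; of each other list the genes with the smallest p are named, up to 4 per comparison, and for each member the 2 genes with the highest correlation. Promoter sequences are from RefSeq (GRCm38.p6) and lengths from NCBIM37. Protein sequences were not used here. Figures were drawn with matplotlib 3.10.9.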

Additional observations from a re-analysis of the deposited data

Results flagged for a closer look

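Arid2 differed between the hairpin lines beyond the threshold, at 95.7 ± 9.72 CPM in the libraries labelled KD6 and 123.7 ± 9.48 CPM in KD4 cells (log2 change -0.37, SE 0.09, limma adjusted p = 0.035), with lower values in 3 of 3 KD6 libraries. Both lines carry hairpins against the same gene, and Smarcd1 itself was at 14.4 ± 1.03 CPM in KD6 and 9.13 ± 0.121 CPM in KD4 cells. The part of that difference in the level of Arid2 was not tested. No member had a single library standing apart in the KD group of 6.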

How the results depend on the processing

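The call of Brd9 in KD4 cells and that of Arid2 between the hairpins were lost with a block for replicate number (adjusted p = 0.099 and 0.10) and in 6 of 9 fits each that left out 1 library, with the same direction in all of them. Same-numbered libraries of different lines had correlations of -0.33 to 0.26, and not every library correlated best with its own number. With each line's mean over 3 libraries subtracted, the correlations of a library with another line nearly cancel. They therefore cannot show whether the numbers pair the libraries, and the fits with the block stand beside those without it. With the block, genes called fell to 114 (of 364) for KD, 626 (of 1310) for KD4, 179 (of 398) for KD6 and 349 (of 671) for KD6 against KD4, with 0 members in each, to 43 (of 250) for the OE effect minus the KD effect and 990 (of 2078) for EV against shScr. Transcripts called fell to 1 (of 89) for KD, 26 (of 343) for KD4 and 0 (of 43) for KD6, and genes called in transcript share to 25 (of 97) for OE and 28 (of 91) for KD.

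Quantile normalization gave 3 called genes in OE against EV, in place of 1, turned Brd7 there to -0.0040 and Bicra in KD4 to -0.0046, and gave 1 member in EV against shScr (Arid2). The mean of both hairpins gave 847 genes and 184 transcripts for KD, with 1 member (Brd9). Without a trend 57 transcripts passed for KD and 222 for KD4, and 0 members between hairpins. A minimum mean of 5 CPM gave 79 transcripts for KD6. Summed transcripts in place of the gene tables, an alternative chosen after seeing the data, gave 0 genes for OE, 217 for KD and 443 for KD6 against KD4, and turned Bicra to 0.15 in KD and 0.012 in KD6, and Bicral to 0.018 in KD6. A fit of KD4 and shScr alone, also chosen after seeing the data, gave 0 members for KD4 (Brd9 adjusted p = 0.057). The causes were not tested.

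Leaving out 1 library gave 0 to 1 called genes for OE, 92 to 397 for KD, 641 to 1309 for KD4, 151 to 419 for KD6, 298 to 611 for KD6 against KD4, 91 to 411 for the OE effect minus the KD effect and 971 to 2401 for EV against shScr, with 0 to 1 members in KD4 and in KD6 against KD4. It gave 1 to 62 transcripts for KD, 68 to 257 for KD4 and 0 to 33 for KD6, and in transcript share 26 to 165 genes for OE and 39 to 107 for KD. Log2 changes that crossed 0 were those of Brd7 in OE (-0.012 to 0.036), KD (-0.072 to 0.024), KD6 (-0.032 to 0.064), EV against shScr (-0.077 to 0.018) and OE minus KD effect (-0.0055 to 0.089), of Bicra in KD (-0.16 to 0.14), KD4 (-0.24 to 0.24), KD6 (-0.29 to 0.082), KD6 against KD4 (-0.35 to 0.13) and EV against shScr (-0.10 to 0.28), of Arid2 in KD (-0.060 to 0.061), of Phf10 in KD6 (-0.0099 to 0.053), of Bicral in KD6 (-0.15 to 0.063) and OE minus KD effect (-0.11 to 0.14), and of Pbrm1 in KD6 against KD4 (-0.00010 to 0.095). None of these was called. In the gene tables the changes of the members, up to 1.31-fold, were smaller than the 1.5-fold changes tested on simulated data, while single transcripts of members differed by more.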
